A study of Panicum virgatum with 54 samples.

Results

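Leaves of switchgrass (Panicum virgatum) were compared at 0 h between the arm that was later droughted and heated and the control arm, which stood in a separate growth chamber. The comparison holds 3 drought-and-heat libraries (DTHT, here called combined) and 3 Control libraries, 6 of the 54 libraries of the study, and covers all genes of the count table. The 3 drought (DT) libraries at 0 h, from the same chamber as the controls, are shown beside them for placement only. All plants were, per the labels, ramets of genotype AP13, a selection from the lowland cultivar Alamo, sampled as leaf tissue at the stage labelled E3. The study as a whole followed combined, drought and control leaves at 0, 72, 96, 120, 144 and 168 h, in 18 groups of 3 libraries. At 0 h the titles give no hours of treatment to any arm, although the treatment label of those libraries already names the arm's later stress. The labels leave unsaid when plants entered their chamber, at which hour of the day leaves were taken, and whether replicates are different plants. The p-values therefore reflect only how much these libraries vary, and some of that variation may be technical. Arm and chamber coincide in every combined library, so differences between chambers and between sets of plants cannot be told apart.

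Switchgrass is a perennial warm-season grass with C4 photosynthesis, and it is polyploid, with a K and an N subgenome that carry many genes in near-identical copies. Ramets are clonal shoots of a single plant, so plants labelled as ramets of a genotype should share it, and per the titles a difference at 0 h precedes the stress that the study imposed. A comparison at 0 h gives the starting difference against which later differences between the arms are read. The count table lists identifiers without gene names, and of its 32190 identifiers 0 matched an entry among the 74976 genes that RefSeq lists for assembly P.virgatum_v5. Genes are therefore given by identifier and by the chromosome coded in it, and nothing can be said of their functions. The leaf label itself could not be checked against marker genes for the same reason.

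Total counts ran from 31221545 to 37574351 in the 6 libraries compared and from 27364368 to 44167573 over the 9 libraries at 0 h. Replicates were not copies of each other, since within a group the squared difference of a pair was on average no less than 49.6 times what sampling of reads gives. Some libraries stood apart before any comparison was made. A search without labels found 399 genes that in combined replicate 2 and drought replicate 1 lay at least 2 log2 units below the other 7 libraries. Their median levels there were 0.567% and 0.847% of the mean of those 7, and not every one of them was near absent. The median level of the 399 genes was under 10% of that mean in 12 of the 54 libraries of the series. Of these 12, 8 were combined, 4 drought and 0 control libraries. The median level of the 399 genes was 85.7% to 102.7% in the 3 controls at 0 h. Whether the libraries low in these transcripts have the labelled genotype was not tested, so a shared genotype of the arms rests on the labels alone. In the main comparison, combined against control, 0 of the 399 were called in either direction by edgeR, where 12.9% of all genes were. Their median log2 difference was -0.52. They were chosen for a low level in combined replicate 2, which widens the spread within the combined group. The absence of calls therefore does not show that these genes leave the comparison unaffected. Control replicate 1 lay farthest from the rest on the other side. The counts of called genes, the named genes and the comparisons with 72 h are also given without some of these libraries. Most other descriptions of the called genes, and the placement of whole libraries, were not repeated without them.

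Combined and control leaves differed at 0 h in many genes, and the differences were larger on the lower side. Of 32011 genes tested, 1754 (5.48%) had higher and 2391 (7.47%) had lower levels in combined leaves against control leaves, in all 12.9%, by edgeR's quasi-likelihood test with Benjamini-Hochberg adjusted p below 0.05. The median log2 difference was 1.13 among the higher genes and -1.64 among the lower ones, against 0.02 over all genes tested, with a median standard error of 0.36. At least 4-fold differences were found in 117 of the higher and 898 of the lower genes, and at least 16-fold ones in 11 and 218. Without adjustment 9420 genes had p below 0.05, where 1601 would be expected of an even spread of p-values.

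The called counts rest heavily on single libraries. Without control replicate 1 only 22 genes were higher and 105 lower, and each of these 127 was also called in the same direction with all libraries. Without combined replicate 2 the counts were 786 and 1136, and without combined replicate 3 they were 675 and 705. With the 12 libraries that were low in the 399 genes left out, 475 genes were higher and 818 lower. When the spread was estimated from the 6 compared libraries alone, 71 genes were higher and 190 lower, and from the 9 libraries at 0 h they were 46 and 35. The number of genes called is thus poorly fixed by these data.

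**Figure D1:**
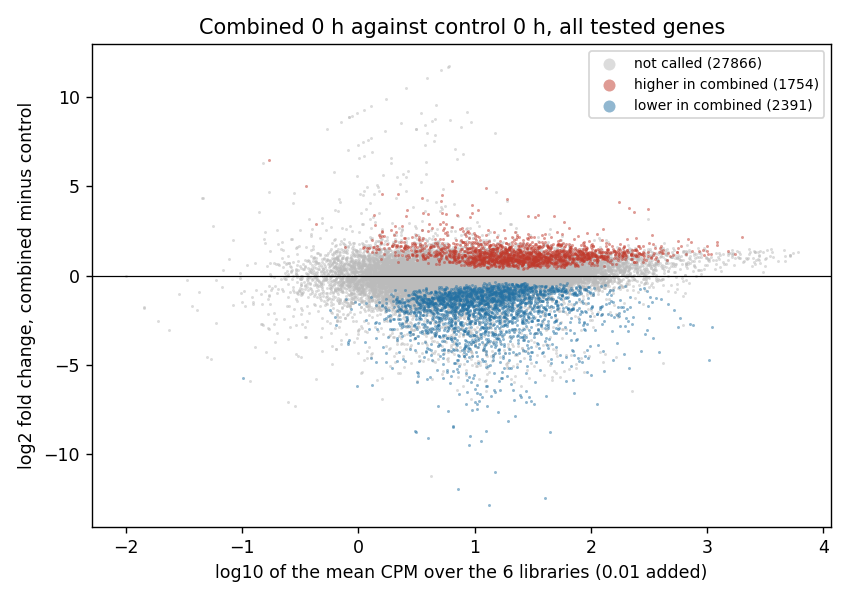
Log2 fold change of combined minus control leaves at 0 h (vertical axis) against the mean level of each of the 32011 genes over the 6 libraries (horizontal axis, log10 of CPM with 0.01 added). Each point is a gene, red for the 1754 called higher, blue for the 2391 called lower and grey for the rest, and the blue points reach farther from 0 than the red ones.

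The RNA was also distributed differently between the groups. The called lower genes held 2.67%, 2.40% and 1.86% of all counts in combined replicates 1, 2 and 3, against 16.5%, 8.81% and 5.85% in control replicates 1, 2 and 3. For the called higher genes the shares were 11.7%, 12.5% and 13.0% in the combined replicates and 4.38%, 7.38% and 8.04% in the control replicates. The groups do not overlap in either share, and control replicate 1 is the most extreme library in both, but these genes were chosen on the same libraries. The 10 most abundant genes of each library took 5.72% to 5.99% of its counts in combined and 2.87% to 4.14% in control leaves. The scaling factors (trimmed mean of M values) ran from 0.839 to 0.890 in combined and from 1.06 to 1.15 in control libraries. The part of this shift in the fold changes was not tested directly, but with another scaling (DESeq2's size factors in edgeR) 1615 genes were higher and 2452 lower, and the median of all genes moved from 0.02 to 0.

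Among genes with higher levels in combined leaves, Pavir.4KG129900.v4.1 on chromosome 4K had the smallest p of those with a mean of at least 5 CPM (CPM being counts relative to the scaled library total). It stood at 60.6, 71.9 and 93.7 CPM in combined replicates 1, 2 and 3, against 17.5, 28.4 and 36.7 CPM in control replicates 1, 2 and 3. The groups do not overlap, and the log2 fold change was 1.45 ± 0.24 (SE, edgeR adjusted p = 7.8e-04). In the drought libraries it had 51.9, 58.1 and 28.8 CPM, so drought replicate 3 lay among the controls and the other two between the groups.

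Pavir.7KG223300.v4.1 on 7K was higher by a smaller factor and with less spread. It had 30.1, 36.1 and 30.7 CPM in combined replicates 1, 2 and 3, and 12.8, 17.3 and 20.2 CPM in control replicates 1, 2 and 3, with a log2 fold change of 0.94 ± 0.16 (SE, edgeR adjusted p = 7.8e-04). The lowest combined library was above the highest control library. The drought libraries had 23.4, 22.8 and 18.3 CPM, of which replicate 3 was again within the range of the controls.

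Pavir.5KG699600.v4.1 on 5K had the smallest p of all genes and was lower in combined leaves. It had 4.79, 3.94 and 2.60 CPM in combined replicates 1, 2 and 3, against 49.6, 41.4 and 25.8 CPM in control replicates 1, 2 and 3. The groups are far apart, with a log2 fold change of -3.37 ± 0.40 (SE, edgeR adjusted p = 7.0e-06). The drought libraries had 6.44, 3.75 and 10.2 CPM, near the combined leaves although they came from the control chamber.

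Pavir.1KG547200.v4.1 on 1K showed the same placement. It had 7.27, 6.39 and 4.27 CPM in combined replicates 1, 2 and 3, and 82.4, 38.5 and 20.4 CPM in control replicates 1, 2 and 3 (log2 fold change -2.98 ± 0.40, SE, edgeR adjusted p = 6.9e-05). Its drought libraries, at 9.996, 4.68 and 10.9 CPM, were all below the lowest control library. All 4 genes passed again when any of the 6 libraries was left out of the fit of the whole series. In the fits of only the 9 or only the 6 libraries, without a replicate block, Pavir.5KG699600.v4.1 passed and the other 3 did not, with edgeR adjusted p between 0.0549 and 0.0778. With control replicate 1 left out of the 6, none of the 4 passed (edgeR adjusted p 0.0689 to 0.126).

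**Figure D2:**
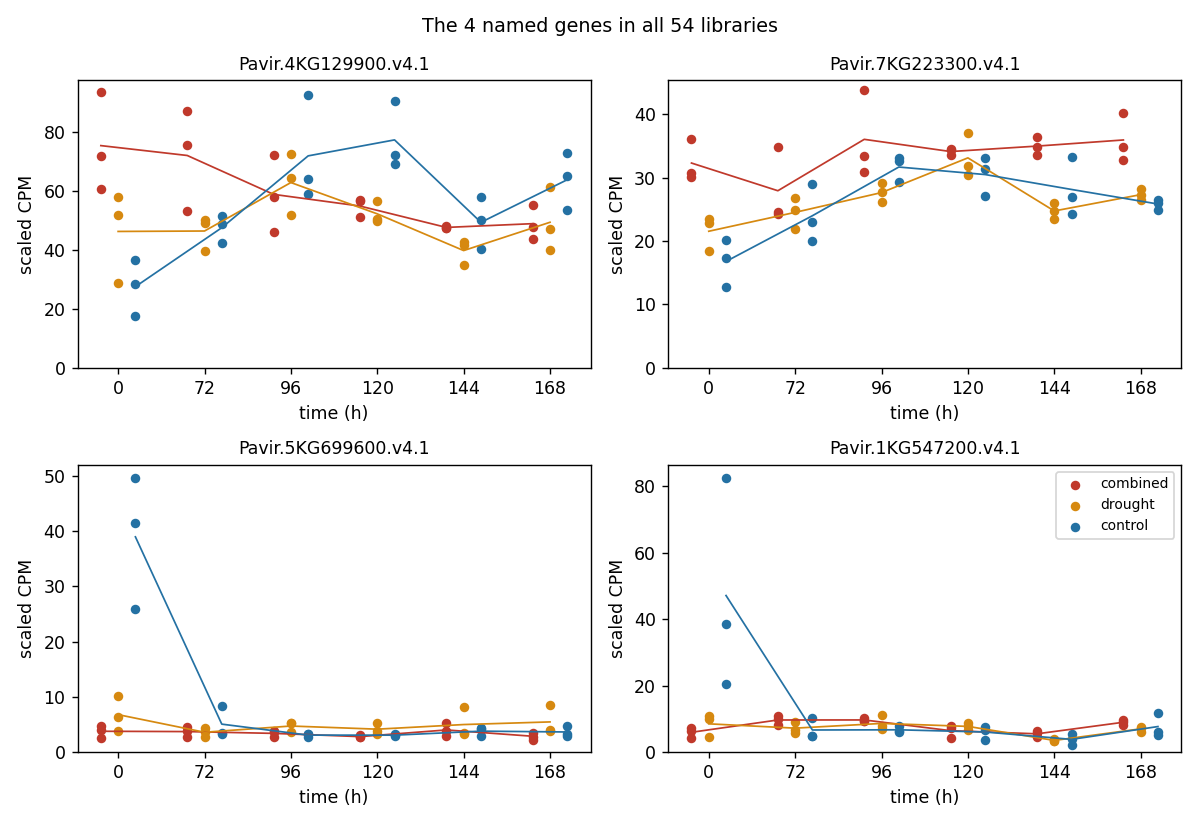
Scaled CPM of the 4 named genes in all 54 libraries (points) at each time in hours, with lines through the group means of 3 libraries, for combined (red), drought (orange) and control leaves (blue). In the lower panels the control libraries at 0 h lie at 25.8 to 49.6 CPM (Pavir.5KG699600.v4.1) and 20.4 to 82.4 CPM (Pavir.1KG547200.v4.1), above every other library, the drought libraries at 0 h included.

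Both genes that were lower in combined leaves also lay below every control library at 0 h in the rest of the series. Over the 16 other groups the mean of Pavir.5KG699600.v4.1 ran from 2.81 CPM in combined leaves at 120 h to 6.78 CPM in drought leaves at 0 h, while the controls averaged 38.9 ± 12.1 CPM at 0 h (SD, n = 3) and 5.06 ± 2.90 CPM at 72 h (SD, n = 3). For Pavir.1KG547200.v4.1 the other group means ran from 3.53 to 9.69 CPM, against 47.1 ± 31.9 CPM in control leaves at 0 h (SD, n = 3). Both genes were chosen for their difference at 0 h, so the height of these controls is a description. Pavir.4KG129900.v4.1 was different, with 72.0 ± 17.3 CPM in combined, 46.4 ± 5.79 CPM in drought and 47.5 ± 4.69 CPM in control leaves at 72 h (SD, n = 3 each), and the control mean was 77.3 CPM at 120 h, a difference between times that was not tested.

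Levels of single genes were then set aside and the 9 libraries at 0 h placed as wholes. The first principal component held 46.8% of the variance of log2 CPM and put combined replicates 1, 2 and 3 at 44.7, 130.0 and 106.3, drought replicates 1, 2 and 3 at 57.0, 46.2 and -96.6, and control replicates 1, 2 and 3 at -158.2, -82.1 and -47.2. Combined and control libraries do not overlap on it, whereas the drought libraries, from the control chamber, fall on both sides. Drought replicate 3 lies among the controls, and drought replicates 1 and 2 lie among the combined libraries. The second component (29.1%) separated combined replicate 2 and drought replicate 1, at 97.2 and 129.9, from combined replicate 3 and drought replicate 2, at -112.4 and -82.9.

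**Figure D3:**
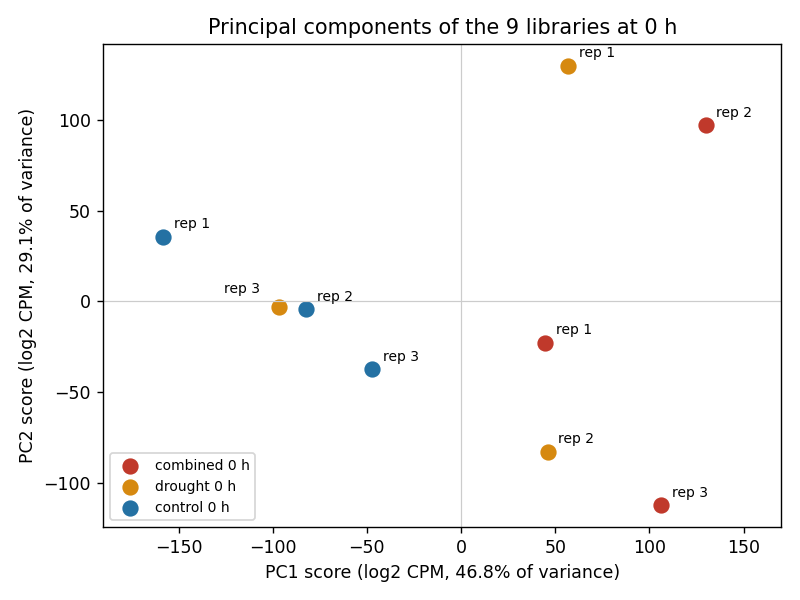
Scores of the 9 libraries at 0 h on the first and second principal components of log2 CPM (46.8% and 29.1% of the variance), for combined (red), drought (orange) and control leaves (blue). Combined libraries lie right of 0 and control libraries left of it, and the drought libraries lie on both sides.

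Correlations of log2 CPM across genes gave this placement only in part, as a description of these libraries in which genes are not independent replicates. Combined replicates correlated at Pearson r 0.846 to 0.922 with each other, and control replicates at 0.882 to 0.953. Between combined and control libraries r ran from 0.677 to 0.910. The highest of these, combined replicate 1 with control replicate 3, was above that of combined replicates 1 and 2 (0.908). Drought replicate 1 correlated at 0.787 to 0.852 with the controls and at 0.794 to 0.938 with the combined libraries. Drought replicate 2 correlated at 0.761 to 0.925 with the controls and at 0.849 to 0.942 with the combined libraries. Combined replicate 2 correlated more with drought replicate 1 (0.938) than with either other combined library, and combined replicate 3 more with drought replicate 2 (0.942). Drought replicate 3 correlated at 0.932 to 0.962 with the controls and at 0.832 and 0.857 with the other drought libraries. The biological coefficient of variation, a spread that comes on top of counting error, was 0.416 in combined, 0.504 in drought and 0.357 in control leaves at 0 h.

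By median level in the called genes, drought replicate 3 lay within the range of the controls and drought replicates 1 and 2 between the groups. Of the 1754 higher genes, the log2 level was nearer to the combined than to the control mean in 1101 genes in drought replicate 1, 1225 in replicate 2 and 60 in replicate 3. Of the 2391 lower genes the numbers were 1080, 1915 and 168. Drought replicate 3 thus stood near the control mean in nearly all called genes, while the other drought libraries stood nearer to the combined mean in 45.2% to 80.1% of them. Over the drought group as a whole, the median log2 difference from control was 0.51 for the higher and -0.60 for the lower genes, and that of combined from drought was 0.58 and -0.97. Those medians share libraries with the comparison that chose the genes and are given side by side only.

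Without reference to any call, the combined leaves were the group most often set apart from the other 6 libraries. All 3 combined libraries lay above all 6 control and drought libraries in 2167 genes (6.77%) and below them in 1801 (5.63%). All 3 control libraries lay above the other 6 in 691 genes (2.16%) and below them in 798 (2.49%), and all 3 drought libraries in 82 (0.256%) and 90 (0.281%). Of the called genes, 881 of 1754 higher and 983 of 2391 lower ones had combined leaves outside the range of both other groups. Those genes were chosen on the same combined and control libraries, so their separation from the controls is largely set by the choice. Against the control libraries alone, combined libraries lay wholly above in 5920 genes (18.5%) and wholly below in 5874 (18.3%), together 36.8% of the genes tested.

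Complete gain or loss of a transcript between the groups was rare and went one way. With at most 3 counts in each library of one group and at least 20 in each of the other, 18 genes (0.0562%) were near absent from combined and present in control leaves, and 0 were near absent from control and present in combined leaves. In control replicates 1, 2 and 3 the median counts of these 18 genes were 398.5, 114.5 and 169. Drought replicate 3 had 10 to 3361 counts (median 382), and at least 20 counts in 16 of them. Drought replicates 1 and 2 had at most 3 counts in 10 and 9 of them, with medians of 2.5 and 4. Presence of these transcripts thus differed between the drought libraries of the control chamber. Their presence in control and near absence in combined libraries were set by the choice. Of the 18 genes, 14 were called lower by edgeR.

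The direction of the called differences varied with transcript abundance. In the 8003 genes with the lowest mean level over the series (median 2.56 CPM at 0 h), 115 genes were called higher and 783 lower, with median log2 differences of 1.67 and -2.67. In the 8003 with the highest level (median 44.8 CPM), 941 were higher and 337 lower, with medians of 1.10 and -1.06. The called share changed less, from 11.2% of the first to 15.97% of the second of these sets, against 12.9% of all genes. A gene with a larger spread needs a larger difference to be called. The medians of called genes therefore do not show how size varied with abundance. Over all genes, called or not, the median absolute log2 difference was 0.69 in the 8003 genes of lowest level. It was 0.44 and 0.34 in the sets between, of 8003 and 8002 genes, and 0.41 in the 8003 of highest level. Those values did not change steadily, and the part of replicate spread in them was not tested. The median of the mean level over the 6 libraries was 24.6 CPM for the higher genes, 12.1 CPM for the lower genes and 10.8 CPM for all genes tested.

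Called genes lay on both subgenomes in like shares. On the K chromosomes 876 of 15664 genes were higher and 1166 lower (13.0% called), and on the N chromosomes 822 of 14899 were higher and 1144 lower (13.2% called). Among single chromosomes the called share ran from 10.6% on 8K and 8N to 14.5% on 1K, and it was 9.46% of the 1448 genes on sequence placed on no chromosome (J identifiers). These shares are descriptions, and reads of near-identical K and N copies may have been split between them by the counting.

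Whether the 0 h difference recurs in other libraries was examined at 72 h, when combined and drought leaves had both been droughted and the titles give the combined arm no heat. These 6 libraries are not among those compared at 0 h, although they inform the spread of the shared fit. The arms still stood in separate chambers. Genes higher in combined leaves at 0 h tended to be higher again, with a positive difference of combined minus drought in 1360 of 1754 (77.5%), against 52.6% of all genes, and a median log2 difference of 0.40 against 0.03. At adjusted p below 0.05, 200 of them (11.4%) were called higher in combined leaves, where 1.86% of all genes were. Within the 8003 most abundant genes, a positive difference was found in 74.7% of those higher at 0 h and 48.8% of all.

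The 2391 genes called lower in combined leaves at 0 h did not show this at 72 h with all libraries. Their difference at 72 h was negative in 1176 of 2391 (49.2%), against 47.4% of all genes, with a median log2 difference of 0.01, and 30 of them (1.25%) were called lower, where 0.69% of all genes were. For both sets the values depended on single libraries at 72 h. Combined 72 h replicate 2 is among the 12 libraries that were low in the 399 genes. Without it, 68.5% of the lower genes had a negative difference, against 49.3% of all genes. The list taken at 0 h mattered as well. Of the 105 genes called lower without control replicate 1 at 0 h, 65.7% had a negative difference at 72 h, against 47.4% of all genes. Among the 35 called lower in the 9 libraries at 0 h the share was 60%. Called lower again at 72 h were 0 of the 105 and 1 of the 35. Over the 6 fits that each left out a library at 72 h, the share of higher genes with a positive difference ran from 73.4% to 84.9%. The calls were less stable. Of the higher genes, 264 (15.1%, against 3.2% of all genes) were called higher without combined 72 h replicate 1, 172 (9.81%, against 1.46%) without combined replicate 2, and 1 (0.057%, against 0.00312%) without combined replicate 3. Without drought 72 h replicate 1, 2 or 3 the counts were 87 (4.96%, against 0.859%), 47 (2.68%, against 0.262%) and 38 (2.17%, against 0.331%).

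**Figure D4:**
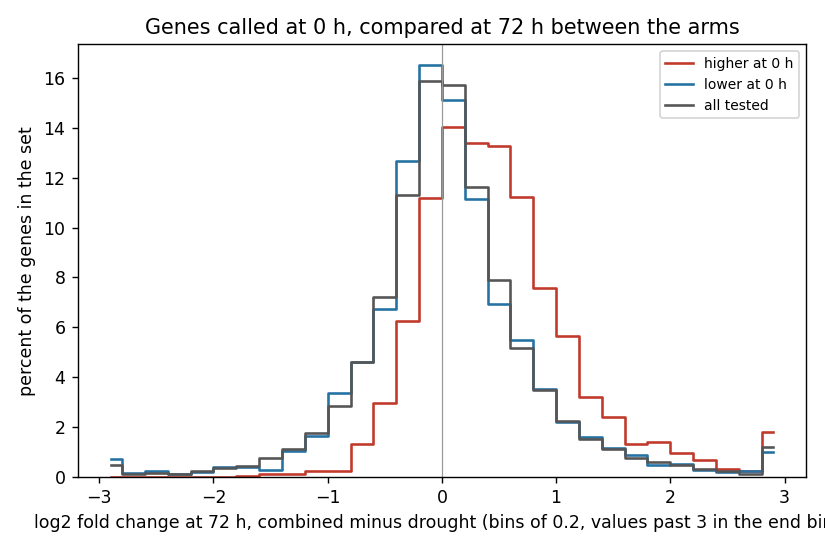
Distribution of the log2 fold change at 72 h, combined minus drought leaves (horizontal axis, bins of 0.2, values past 3 in the end bins), as percent of the 1754 genes higher at 0 h (red), the 2391 genes lower at 0 h (blue) and all 32011 tested genes (grey). The red curve is shifted to positive values (median 0.40), while the blue one follows all genes (medians 0.01 and 0.03).

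Against the controls of the same time the recurrence was smaller for the higher genes. For the lower genes the share with the same sign was larger than against drought. At 72 h the higher genes had a positive difference of combined minus control in 70.8%, against 53.0% of all genes, and 76 of them (4.33%) were called higher, where 1.34% of all genes were. For the lower genes a negative difference was found in 56.7%, against 47.0% of all, and 8 (0.335%) were called lower, where 0.256% of all were. At later times, with heat added, the median log2 difference of combined minus drought for the higher genes was 0.31 (96 h), 0.30 (120 h), 0.33 (144 h) and 0.07 (168 h). Against control it was 0.07, -0.07, 0.23 and -0.15 over the same times, with no steady direction. For the lower genes, combined minus drought was negative in 56.9%, 59.5%, 53.7% and 53.3% over these times. Among all genes the shares were 50.9%, 48.5%, 50.4% and 51.4%. Combined minus control was negative in 33.1%, 22.2%, 49.0% and 45.1% of the lower genes. Among all genes it was negative in 46.3%, 46.4%, 51.4% and 50.9%. Tested by edgeR over the whole series, the difference of combined minus control at 72 h exceeded that at 0 h in 608 genes (1.9%). It was below that at 0 h in 168 (0.525%), a comparison added after the data were seen. Of the 608, 380 had been called lower at 0 h, and of the 168, 113 had been called higher at 0 h. The 0 h difference that chose those genes is part of this comparison. The counts of 608 and 168 became 5 and 0 without control replicate 1 at 0 h. They were 126 and 22 without combined replicate 1, and 336 and 64 without combined replicate 2. They were 6 and 6 without combined replicate 3, and 1157 and 524 without control replicate 3. Without the 12 libraries that were low in the 399 genes they were 0 and 0 (edgeR, with 5412 genes at unadjusted p below 0.05).

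The levels of the called genes were then followed across the series. Relative to the mean of each gene over 54 libraries, the median log2 level of the lower genes was -0.24, -0.35 and -0.69 in combined, 0.33, -0.09 and 0.96 in drought and 1.64, 0.93 and 0.56 in control replicates 1, 2 and 3 at 0 h. The highest group mean outside 0 h was 0.15, in combined leaves at 168 h. Control leaves at 0 h had the highest mean of all 18 groups in 1976 of the 2391 lower genes (82.6%), against 15.0% of all genes, and combined leaves at 0 h had the lowest in 445 (18.6%), against 5.26% of all. In the higher genes, control leaves at 0 h were the lowest of 18 groups in 1215 of 1754 (69.3%), against 12.1% of all genes, and combined leaves at 0 h the highest in 397 (22.6%), against 5.81%. These counts use the libraries that chose the genes and are a description.

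The 15 groups sampled after 0 h were not compared in that choice. Their libraries did inform the spread, filter and scaling that it used, so they are not independent of it. The median level of these 15 groups was nearer to combined than to control leaves at 0 h in 1434 of 1754 higher genes (81.8%). The same held in 2040 of 2391 lower genes (85.3%), against 58.7% of all genes. From that median, the higher genes were 0.34 log2 units up in combined, 0.26 down in drought and 0.80 down in control leaves at 0 h, and the lower genes 0.35 down in combined, 0.46 up in drought and 1.13 up in control leaves. Over all genes tested, the median distance was -0.02 in combined, -0.02 in drought and -0.03 in control leaves. The called genes were chosen on the combined and control libraries at 0 h, so their distances in those libraries are a description and do not show which group moved. For the 105 genes called lower without control replicate 1, drought replicates 1, 2 and 3, which are not among the libraries compared, stood 0.36, 0.06 and 1.20 log2 units above the later median.

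**Figure D5:**
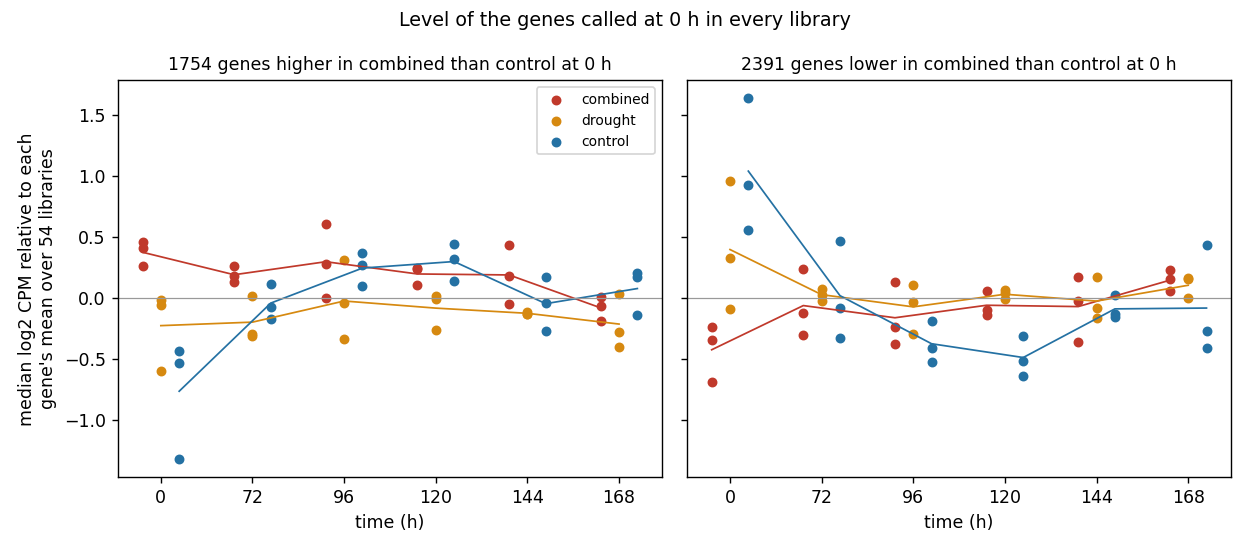
Median log2 CPM, relative to each gene's mean over 54 libraries, of the 1754 genes higher (left) and the 2391 genes lower (right) in combined than in control leaves at 0 h, in every library by time in hours, with lines through group means. The control mean at 0 h lies farthest from 0 of the group means in both panels. Single controls at 0 h lie at -0.44 to -1.32 on the left and 0.56 to 1.64 on the right. Drought replicate 3 at 0 h lies in the control range, and the other drought libraries at 0 h lie between the groups.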

How the data were processed

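The file holds raw read counts for each gene as whole numbers, as deposited by the authors, from stranded mRNA libraries of leaf RNA, per the labels' protocols. TopHat, Cufflinks and HTSeq were used, per the submitters' processing notes; the build, annotation and strand setting were not given in the sources used here. Groups and times come from the titles, those reading 94 h being taken as 96 h. The test was edgeR 4.0.16 (R 4.3.3) with its default expression filter (minimum count 10, minimum total 15; 32011 genes kept, 179 removed), scaling by the trimmed mean of M values, and a quasi-likelihood fit of 18 group means, so that all 54 libraries inform the spread. Components and group levels rest on log2 CPM (prior count 2). The search for separate levels took log2 CPM with 0.5 added, a gap of at least 2 log2 units and a mean count of at least 20. Named genes are, in each direction, the 2 called genes of smallest p whose mean reaches 5 CPM. Alternatives used DESeq2 1.42.0, limma 3.58.1 (voom), other filters, scaling and sets of libraries, a fold threshold and a replicate block. The test was tried on simulated counts. The comparison, rules and lists were chosen with earlier results of these data known.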

Additional observations from a re-analysis of the deposited data

Results flagged for a closer look

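The difference between combined and control leaves at 72 h was tested against that at 0 h, a comparison added after the data were seen. At edgeR adjusted p below 0.05, 608 genes had a positive and 168 a negative change. Genes called lower at 0 h were 380 of the 608, and genes called higher at 0 h were 113 of the 168. Both named genes that were lower in combined leaves at 0 h were among those whose difference changed between the times. For Pavir.5KG699600.v4.1 the log2 difference was 2.91 greater at 72 h (edgeR adjusted p = 0.0115), with 3.72 ± 0.99 CPM in combined and 5.06 ± 2.90 CPM in control leaves at 72 h (SD, n = 3 each). Its edgeR adjusted p was 0.0597 without control replicate 1 at 0 h and 0.0514 without combined replicate 3. It was 0.0933 without the 12 libraries that were low in the 399 genes. For Pavir.1KG547200.v4.1 the change was 3.51 (edgeR adjusted p = 0.0020), with 9.68 ± 1.44 CPM in combined and 6.67 ± 3.15 CPM in control leaves at 72 h (SD, n = 3 each), and its adjusted p was 0.0933 without the 12 libraries. Control leaves at 0 h had averaged 38.9 CPM of the first gene and 47.1 CPM of the second, and both genes were chosen for their difference at 0 h.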

How the results depend on the processing

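Against 4145 genes called, edgeR called 81 with the 9 libraries at 0 h, 261 with the 6 compared and 682 beyond a 1.5-fold threshold. It called 1293 without the 12 libraries that were low in the 399 genes. With control replicate 1 left out of the 6 it called 0 (6386 at unadjusted p below 0.05), an alternative chosen after the data were seen. Leaving out each library in turn gave 127 to 4897. DESeq2 called 5667 and limma 3984. Deviations of same-numbered combined and control libraries from their group means correlated at r = 0.26, -0.07 and 0.32. For differently numbered libraries r ran from -0.32 to 0.13. Whether the numbers mark pairs was not tested. With a replicate block edgeR called 5073 genes in all 54 libraries and 2122 in the 6. In the 6, Pavir.4KG129900.v4.1, Pavir.5KG699600.v4.1 and Pavir.1KG547200.v4.1 passed (edgeR adjusted p = 0.0283, 0.0116 and 0.0171) and Pavir.7KG223300.v4.1 did not (0.0627). The 4 named genes kept their direction in 17 alternatives each. The changes between 72 h and 0 h, 776 genes, became 5 to 1681 when a library was left out and 0 without the 12 libraries (5412 at unadjusted p below 0.05; other tools were not run). Genes near absent from combined leaves were 12 under the stricter filter, which tests fewer genes. The 61.2% of called genes with the same sign at 72 h became 62.9%, 64.8%, 64.1% and 54.7% at 96, 120, 144 and 168 h, 82.7% for the genes called in the 9 libraries, 70.9% for those called without control replicate 1, and 55.8% to 72.8% without a library at 72 h. Where no construction is named, the cause was not tested. Total counts of the 6 libraries ran from 31221545 to 37574351, and what depth limits was not tested.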

Other observations

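Some transcripts at 0 h fell into separate levels that cut across both arm and chamber. Of 31609 genes searched without labels among the 9 libraries, 616 showed a single gap of at least 2 log2 units, and the 399 described above made up most of them. A further 51 genes were low in the 3 combined libraries and drought replicates 1 and 2 and high in drought replicate 3 and control replicates 1, 2 and 3. Another 40 were high in combined replicates 1 and 2 and drought replicate 1 and low in the other 6 libraries, which places combined replicate 3 with the controls for those genes. In 19 genes, combined replicate 3 and drought replicate 2 were low together. A split by chamber, with the 3 combined libraries on one side and the 6 control and drought libraries on the other, was made by 7 genes, all of them high in combined leaves. The 3 control libraries were separated from the other 6 in 2 genes, which were high in control leaves.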
